A study of Mus musculus with 12 samples.

Results

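The kelch-like genes are the mouse genes named Klhl with a number. They were chosen by that name from the deposited expression tables, which gave 37 genes of the 48526 in each table. The family was picked because Klhl23 is listed at 0 in the 10-month control libraries only, so the values of Klhl23 in every comparison with that group are a description, and nothing is read from a call of Klhl23 there. The other 36 genes were taken by name and not by their values.

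The libraries come from the cortex of 12 C57Bl/6 mice that had no treatment, 3 animals in each of 4 groups. The groups are non-transgenic controls at 3 months, TAU58/2 transgenic mice at 3 months, non-transgenic controls at 10 months and TAU58/2 transgenic mice at 10 months. TAU58/2 mice are 1 line that carries human tau with the P301S mutation, known from inherited frontotemporal dementia, under a Thy1 promoter that is active in neurons. Values are FPKM, fragments scaled to transcript length and library size, so levels of different genes can be set side by side.

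Kelch-like proteins mostly carry a BTB domain, a BACK domain and a propeller of kelch repeats. The BTB and BACK parts bind the scaffold cullin-3, the propeller binds a target protein, and the complex attaches ubiquitin to that target. In the brain, members of the family are known for acting on the actin cytoskeleton, on receptors at synapses and on kinases, and the human genes of several members carry mutations that cause disease of muscle, kidney, skin or retina.

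A library's FPKM total was 125933 at the lowest and 158077 at the highest, with 12828 to 13914 genes above 0. The commonest ratio between low values put the depth of the other libraries at 1.07 to 1.37 times that of 10-month control 1, while depth in reads is unknown. Only 5.96% to 8.48% of the low genes compared lay at that ratio, so the order is rough. The 10-month transgenic 3 library, put at 1.22 times, had 12828 genes above 0, against 12860 in 10-month control 1. Mapt, under which fragments of the tau transgene could be counted, was at 43.3 to 47.6 FPKM in the 3-month transgenic libraries and at 6.64 to 12.0 FPKM in the 3-month controls. At 10 months the values were 42.6, 12.4 and 3.31 FPKM under the transgenic label against 42.7, 8.13 and 9.08 FPKM under the control label. Thy1 was at 409.6 to 440.5 FPKM in the 3-month transgenic libraries and at 104.9 to 140.5 FPKM in the 3-month controls. At 10 months Thy1 had 172, 114 and 159 FPKM under the transgenic label against 115, 314 and 176 FPKM under the control label. Every 10-month direction below thus rests on labels that Mapt and Thy1 did not follow. All 10 markers of cortical neurons had a mean of at least 1 FPKM, and their sum ranged from 883 to 1378 FPKM. Some of them varied widely between libraries. Sst was at 0, 0.632 and 302 FPKM in the 3-month controls and at 492, 0.717 and 1.33 FPKM in the 3-month transgenic libraries. Neurod6 ranged from 0 to 27.3 FPKM and Gad2 from 0 to 19.2 FPKM, while Snap25 was at 131 to 344 FPKM. The 10-month transgenic 1 library stands apart with 11230 FPKM of the pituitary hormone gene Gh, against 0 to 37.4 FPKM in the other libraries. Ttr, a choroid plexus marker, was at 728 FPKM in 3-month control 1, 300 in 3-month transgenic 3 and 439 in 10-month transgenic 1. It was at 5.25 to 63.5 FPKM in the remaining libraries, and the other choroid plexus markers did not exceed 1.36 FPKM. In such bulk tissue, fewer cells of a type and less RNA per cell cannot be told apart.

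Klhl23 (ENSMUSG00000042155) lies on chromosome 2, from 69821944 to 69836651 on the plus strand (GRCm38), and overlaps no other annotated gene. RefSeq gives it 3 start windows, each of 250 bases before to 50 bases after a transcript start, and windows 1 and 3 are shown because they differ most in base composition at the gene whose zeros led to the choice of the family. Capitals mark CG dinucleotides, which are sites of DNA methylation.

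Klhl23 start window 1, chr2:69821691-69821990, plus strand, GRCm38.p6: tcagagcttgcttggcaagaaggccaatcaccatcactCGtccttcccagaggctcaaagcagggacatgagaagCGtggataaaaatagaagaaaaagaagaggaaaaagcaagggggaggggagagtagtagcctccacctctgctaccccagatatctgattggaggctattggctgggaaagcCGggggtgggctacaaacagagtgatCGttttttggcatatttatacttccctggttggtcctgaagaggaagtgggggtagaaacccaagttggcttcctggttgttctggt
Klhl23 start window 3, chr2:69822591-69822890, plus strand, GRCm38.p6: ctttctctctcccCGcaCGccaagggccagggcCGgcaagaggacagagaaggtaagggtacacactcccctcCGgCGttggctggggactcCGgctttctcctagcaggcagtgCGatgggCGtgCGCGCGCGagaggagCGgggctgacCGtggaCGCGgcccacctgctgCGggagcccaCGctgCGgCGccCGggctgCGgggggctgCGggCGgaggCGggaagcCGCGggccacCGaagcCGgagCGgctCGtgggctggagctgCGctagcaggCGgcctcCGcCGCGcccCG

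Window 1 holds 4 CG, and 68.6% of all RefSeq start windows hold at least as many. Window 3 holds 37 CG, which 5.58% of all windows reach. TATAAA, searched on both strands, is found in window 1 and not in window 3, and 13.6% of all windows hold it. It has no C or G, so it cannot overlap a CG. The tables give 1 value per gene, so they do not say which start was used in any library. Over the 31 members with a RefSeq window, the median window held 16 CG, against 7 over all windows.

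Klhl23 was at 4.22, 4.38 and 4.00 FPKM in the 3-month controls, and at 2.04, 4.16 and 4.23 FPKM in the 3-month transgenic libraries. At 10 months it was listed at 0 in all 3 libraries labelled control and at 1.51, 2.27 and 1.73 FPKM in those labelled transgenic. The 3-month groups overlap, the 3-month transgenic 1 library being about as low as the 10-month transgenic libraries, and the 10-month groups do not. The choice of the family also took Klhl23 as above 0 in the other groups, so it bears on the comparisons without the 10-month controls too. In these comparisons, Klhl23 did not pass the threshold. Its log2 fold change between genotypes at 3 months was -0.34 (SE 0.42, adjusted p = 1 in limma), and between 10 and 3 months in the transgenic libraries it was -0.83 (SE 0.42, adjusted p = 0.974 in limma). Without the 3-month transgenic 1 library, the 3-month value was -0.0011, and without 3-month transgenic 3 it was -0.51.

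Over the whole table, 5 genes were listed at 0 in the 3 libraries labelled 10-month control and above 0 in the other 9. Klhl23 had the highest level among them and was the only one with at least 1 FPKM in each of the 9 libraries. The others were Il12a, which encodes a subunit of an interleukin, at 0.0787 to 0.549 FPKM in those 9 libraries, and Zfp605, Il16 and A230077H06Rik, none of which exceeded 0.309 FPKM in any library. The same pattern in the 3-month controls was met by 5 genes, in the 3-month transgenic libraries by 3 and in the 10-month transgenic libraries by 0, none of them with at least 1 FPKM in all of the 9 remaining libraries.

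The neighbours of Klhl23 on the chromosome did not share its zeros. Phospho2, a phosphatase gene that ends 21939 bases before Klhl23 on the same strand, had 4.34, 4.12 and 2.96 FPKM under the 10-month control label and 3.97, 3.23 and 5.46 FPKM under the transgenic label. Ssb, which encodes the La RNA-binding protein and starts 24911 bases after Klhl23, was at 36.2 ± 4.86 against 36.5 ± 5.29 FPKM (SD, n = 3). Mettl5, which encodes an RNA methyltransferase, was at 1.34 ± 0.530 against 1.57 ± 0.950 FPKM (SD, n = 3). Their log2 fold changes at 10 months were 0.13 (SE 0.72), 0.0097 (SE 0.19) and 0.13 (SE 0.56), each with a limma adjusted p of 1. Ccdc173, the next gene before Phospho2, was at 0.0131, 0.00576 and 0.0218 FPKM under the 10-month control label. It was listed at 0 in the other 9 libraries, the reverse of Klhl23, but all its values are near the floor. Of the 31-base words of the longest Klhl23 transcript, 0.719% occur in a transcript of another gene.

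**Figure D1:**
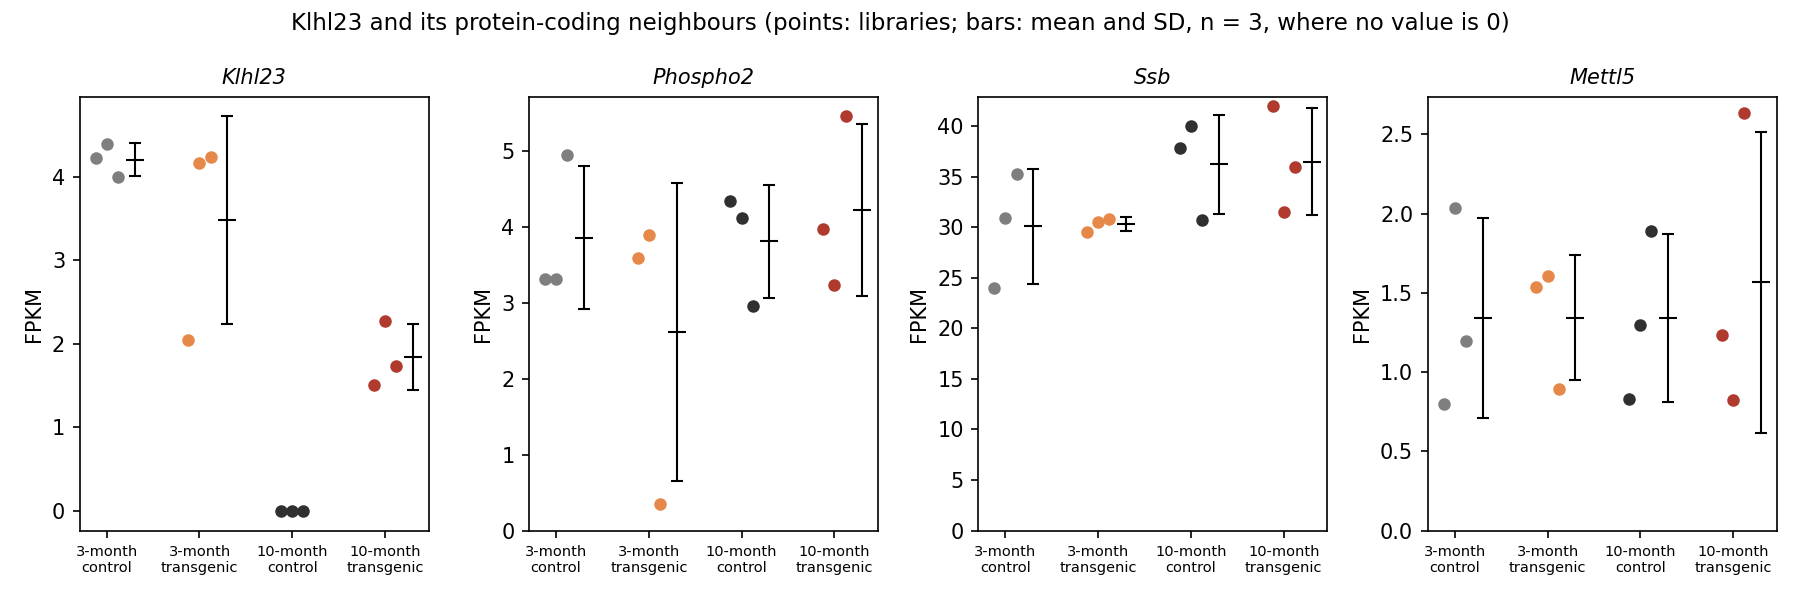
FPKM (vertical axes) of Klhl23, Phospho2, Ssb and Mettl5 in the 4 groups (horizontal axes), with a point per library and bars for mean and SD of 3 libraries where no value is 0. Klhl23 is listed at 0 in the 3 libraries labelled 10-month control, while Ssb has a mean of 36.2 FPKM there and 36.5 FPKM in those labelled transgenic.

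Zeros were not particular to Klhl23 in the family. Of the 37 members, 7 were listed at 0 in every library, 13 were above 0 in every library and the rest were listed at 0 in some. Of the 21 members with a group mean of at least 1 FPKM, which were the ones tested, 8 were listed at 0 in at least 1 library. Without Klhl23, whose zeros led to the choice of the family, 7 of the other 20 were (35%), against 25.5% of all genes tested. Shares were also taken by the mean of the nonzero libraries, over members and genes whether tested or not. Without Klhl23, these shares were 42.9% against 39.7% at 1 to 5 FPKM. At 5 FPKM or more they were 1 of 4 members against 13.1%. The zeros were 8.33% of the values of the 21 tested members. They were 7.5% of the values of the other 20, against 7.62% over all genes tested. The library with the most was 10-month transgenic 3, which listed 5 of the 21 members at 0 and also the largest share of all tested genes, 10.8%. The lowest group mean that passed was that of Klhl22, at 1.03 FPKM, and the highest that did not was that of Klhl32, at 0.874 FPKM. Among the tested members, 4 had a mean under 1 FPKM over all 12 libraries and so passed only through a group in which they were high.

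**Figure D2:**
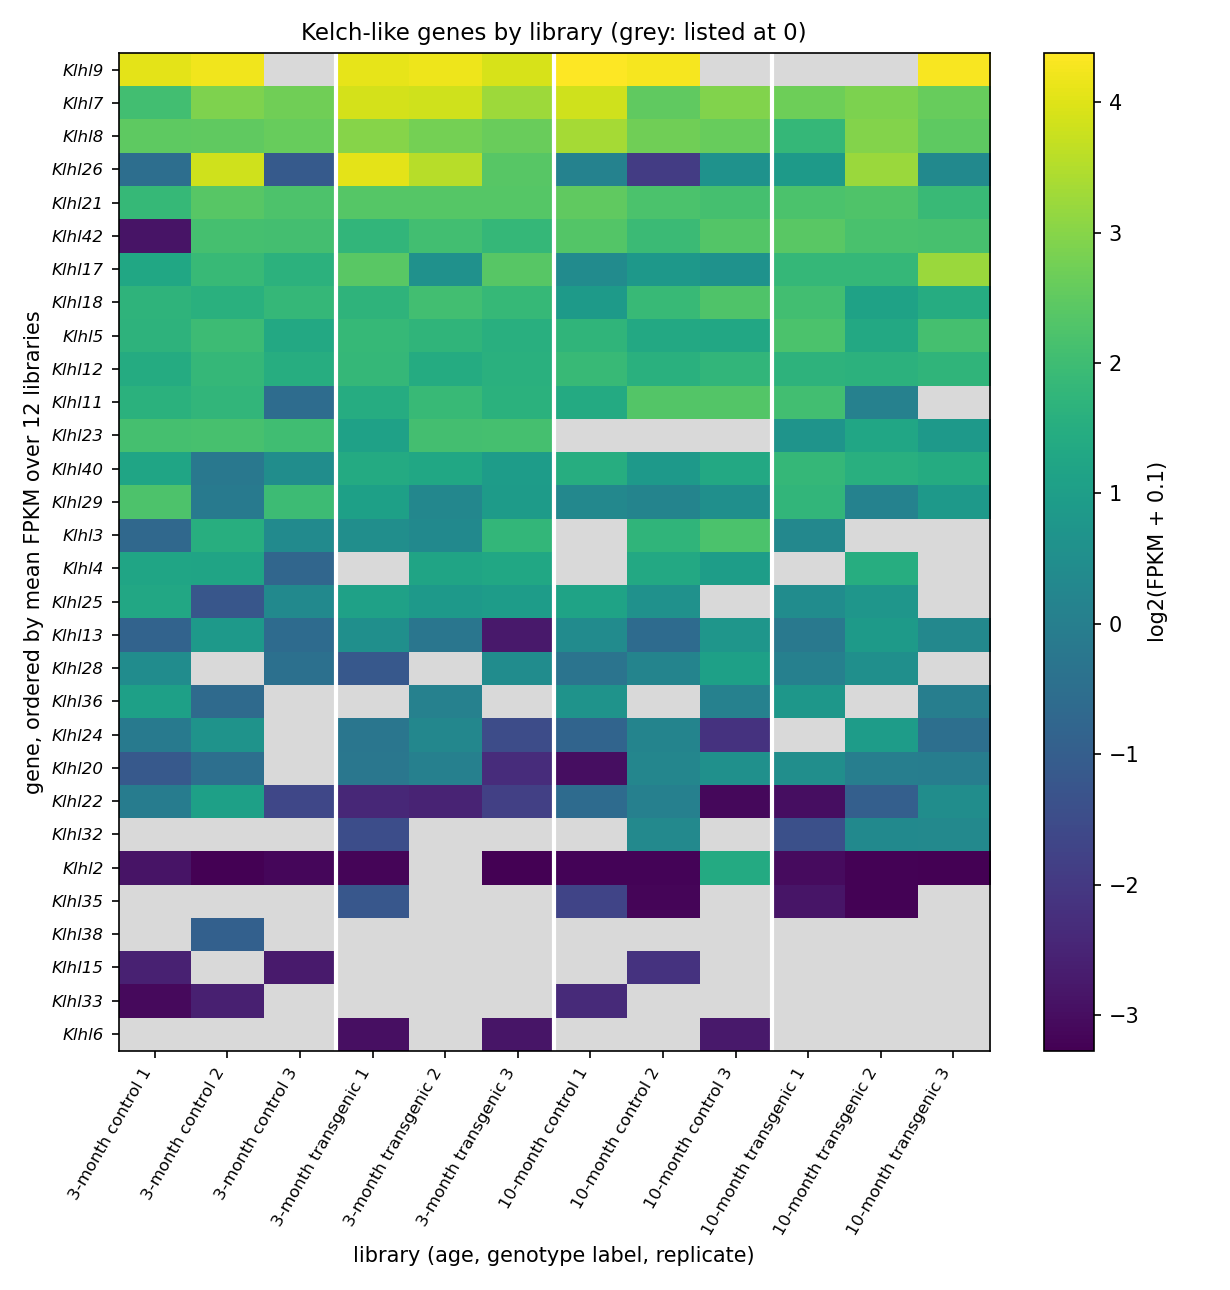
Level of each of the 30 kelch-like genes that were above 0 in at least 1 library (rows, by mean FPKM) in the 12 libraries (columns), as log2(FPKM + 0.1), with values listed at 0 in grey. Klhl9 has the highest mean and is at 0 in 4 libraries, and Klhl23 is at 0 in the 3 libraries labelled 10-month control.

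Klhl17, known in the rat as actinfilin, is an adaptor for a kainate receptor subunit. It was at 2.32, 3.59 and 3.00 FPKM in the 3-month controls and at 5.28, 1.43 and 5.10 FPKM in the 3-month transgenic libraries. At 10 months it had 1.24, 1.63 and 1.43 FPKM under the control label and 3.41, 3.46 and 9.21 FPKM under the transgenic label. The 10-month groups do not overlap, and the 3-month groups do. The log2 fold change at 10 months was 1.68 (SE 0.54) and missed the threshold (adjusted p = 0.969 in limma). It was 1.21 without the 10-month transgenic 3 library, which held the highest value. In the controls Klhl17 was lower at 10 than at 3 months in every library, with a log2 fold change of -0.99 (SE 0.54, adjusted p = 0.994 in limma).

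Klhl2, an actin-binding adaptor that in human cells also targets WNK kinases, was at 2.53 FPKM in the 10-month control 3 library and at or below 0.0378 FPKM in the other 11. Klhl24, mutated in a human skin disease through keratin, ranged from 0 to 1.86 FPKM. Klhl1, known from Purkinje neurons of the cerebellum, was listed at 0 in all libraries. Of the 5 cerebellar markers, Cbln3, Gabra6 and Pcp2 were also listed at 0, while Cbln1 was at 1.56 to 4.67 FPKM and Calb2 at 2.33 to 10.9 FPKM.

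The highest level in the family was that of Klhl9, which with Klhl13 and Klhl21 directs the kinase Aurora B in dividing human cells. Klhl9, a gene of 1 exon on chromosome 4 (88718292 to 88722465, minus strand, GRCm38), was at 16.5, 18.5 and 0 FPKM in the 3-month controls, 16.9, 18.01 and 14.9 FPKM in the 3-month transgenic libraries, 20.7, 19.2 and 0 FPKM under the 10-month control label and 0, 0 and 19.6 FPKM under the 10-month transgenic label. It was at 14.9 to 20.7 FPKM in 8 libraries and listed at 0 in the other 4, which were 3-month control 3, 10-month control 3, 10-month transgenic 1 and 10-month transgenic 2. Its level thus fell in 2 separate ranges that cut across age and genotype. Gm26566, which overlaps it on the opposite strand, was at 0.272 to 0.725 FPKM in those 4 libraries and at 0 to 0.624 FPKM in the others, and its part in the values of Klhl9 was not tested. None of the 31-base words of Klhl9 occurs in a transcript of another gene. Klhl13 was lower, at 0.0471 to 1.75 FPKM, and Klhl21 was at 3.48 to 5.61 FPKM with 4.65 ± 0.613 over all libraries (SD, n = 12). Its values were 3.48, 5.17 and 4.67 FPKM in the 3-month controls, 4.99, 5.09 and 5.02 FPKM in the 3-month transgenic libraries, 5.61, 4.51 and 4.23 FPKM under the 10-month control label and 4.51, 4.77 and 3.69 FPKM under the 10-month transgenic label. The genotypes overlap at both ages.

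Other adaptors known from the division of human cells followed. Klhl18, an adaptor of Aurora A, was at 3.15, 2.89 and 3.46 FPKM in the 3-month controls, 3.13, 4.07 and 3.55 FPKM in the 3-month transgenic libraries, 1.75, 3.61 and 4.74 FPKM under the 10-month control label and 4.11, 2.08 and 2.65 FPKM under the 10-month transgenic label. Its groups overlap at both ages. Klhl42, an adaptor of the microtubule-severing enzyme katanin, was at 0.0381, 4.27 and 4.13 FPKM in the 3-month controls, 3.26, 4.11 and 3.48 FPKM in the 3-month transgenic libraries, 4.88, 3.76 and 4.98 FPKM under the 10-month control label and 5.22, 4.48 and 4.33 FPKM under the 10-month transgenic label. Apart from the low 3-month control 1 library, all of them lie between 3.26 and 5.22 FPKM. Klhl22, an adaptor of the kinase PLK1, was at 0.850, 2.02 and 0.217 FPKM in the 3-month controls and at 0.0851, 0.0770 and 0.184 FPKM in the 3-month transgenic libraries. Its 3-month groups do not overlap, but all of its transgenic values there are low and its 10-month groups overlap.

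Of the adaptors known for secretion, signalling and metabolism in human cells, Klhl12, which acts on the COPII coat of large secretory vesicles, varied least of all tested members. It ranged from 2.61 to 3.56 FPKM, with 3.07 ± 0.329 over all libraries (SD, n = 12). Klhl25, an adaptor of a translation repressor, was at 0.328 to 2.37 FPKM in 10 libraries and listed at 0 in the other 2. Klhl20, an adaptor of the kinase DAPK1, ranged from 0 to 1.37 FPKM, and Klhl15, an adaptor of a subunit of protein phosphatase PP2A, did not exceed 0.127 FPKM.

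Klhl3, whose human mutations raise blood pressure through WNK kinases of the kidney, was at 0.516, 2.75 and 1.21 FPKM in the 3-month controls and at 1.32, 1.18 and 3.37 FPKM in the 3-month transgenic libraries. At 10 months it had 0, 3.23 and 4.56 FPKM under the control label and 1.13, 0 and 0 FPKM under the transgenic label. All 3 of the latter are below the 3-month transgenic libraries, with a log2 fold change of -2.999 (SE 1.51, adjusted p = 0.974 in limma) whose size depends on the zeros.

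Klhl7, mutated in human retinitis pigmentosa, lies on chromosome 5 (24100605 to 24160792, plus strand, GRCm38) and followed Klhl9 in level. It was at 4.07, 7.36 and 6.50 FPKM in the 3-month controls and at 14.8, 14.0 and 9.55 FPKM in the 3-month transgenic libraries. At 10 months it had 14.0, 5.62 and 7.50 FPKM under the control label and 6.29, 7.19 and 5.97 FPKM under the transgenic label. The groups are apart at 3 months and overlap at 10 months. The 3-month log2 fold change was 1.10 (SE 0.35, adjusted p = 1 in limma), and the difference between the ages in that effect was -1.48 (SE 0.50, adjusted p = 0.987 in limma). Within the transgenic libraries, all 10-month values were below all 3-month values, with a log2 fold change of -0.95 (SE 0.35, adjusted p = 0.974 in limma). None of these passed the threshold. A processed pseudogene, Gm3724, overlaps Klhl7 on the opposite strand, at 0 FPKM in the 3-month control 2 library and 25.9 to 41.2 FPKM in the others, and its part in the values of Klhl7 was not tested.

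Klhl8, whose worm relative takes part in the turnover of glutamate receptors, was at 5.45, 5.59 and 5.94 FPKM in the 3-month controls. It was at 7.86, 6.79 and 6.06 FPKM in the 3-month transgenic libraries, at 9.98, 6.45 and 5.95 FPKM in the libraries labelled 10-month control and at 3.47, 7.67 and 5.48 FPKM in those labelled 10-month transgenic. The 3-month groups are narrowly apart and the 10-month groups overlap.

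Klhl26, on chromosome 8 (70450219 to 70476968, minus strand, GRCm38), was at 0.600, 14.1 and 0.366 FPKM in the 3-month controls, 16.6, 11.7 and 5.17 FPKM in the 3-month transgenic libraries, 0.983, 0.166 and 1.45 FPKM under the 10-month control label and 1.76, 9.22 and 1.20 FPKM under the 10-month transgenic label. It thus lay in 2 ranges, at 5.17 to 16.6 FPKM in the 3 transgenic libraries of 3 months, in 3-month control 2 and in 10-month transgenic 2, and at 0.166 to 1.76 FPKM in the other 7 libraries. The log2 fold change at 3 months was 2.60 (SE 1.29, adjusted p = 1 in limma), and the groups overlap. It ranged from 1.68 to 4.15 when each library was left out in turn, and was 1.68 without 3-month control 3 and 4.15 without 3-month control 2.

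Klhl11, known as an autoantigen in encephalitis that accompanies testicular tumours in people, was at 2.94, 3.32 and 0.568 FPKM in the 3-month controls and at 2.66, 3.605 and 2.96 FPKM in the 3-month transgenic libraries. At 10 months it had 2.53, 4.97 and 4.95 FPKM under the control label and 4.07, 0.953 and 0 FPKM under the transgenic label. The groups overlap at both ages. The 10-month log2 fold change was -2.42 (SE 1.16, adjusted p = 0.969 in limma) and -0.96 without the 10-month transgenic 3 library, whose 0 makes the size depend on the added 0.1, and -3.65 without 10-month transgenic 1. The difference between the ages was -3.14 (SE 1.64, adjusted p = 0.987 in limma). It was -1.68 without 10-month transgenic 3.

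Klhl5 was at 3.18 ± 0.741 FPKM over all libraries (SD, n = 12) and Klhl29 at 0.811 to 4.64 FPKM. Klhl4 was listed at 0 in 4 libraries and at 0.498 to 2.74 FPKM in the rest, Klhl28 was at 0 to 2.02 FPKM and Klhl36 at 0 to 2.03 FPKM. Klhl32 was at 0 to 1.19 FPKM, and Klhl35, Klhl33 and Klhl6, a gene of B lymphocytes, did not exceed 0.335 FPKM. Of the B cell markers, Cd79a, Cd79b and Ms4a1 were listed at 0 in all libraries and Ighm was at 0.348 to 7.83 FPKM.

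**Figure D3:**
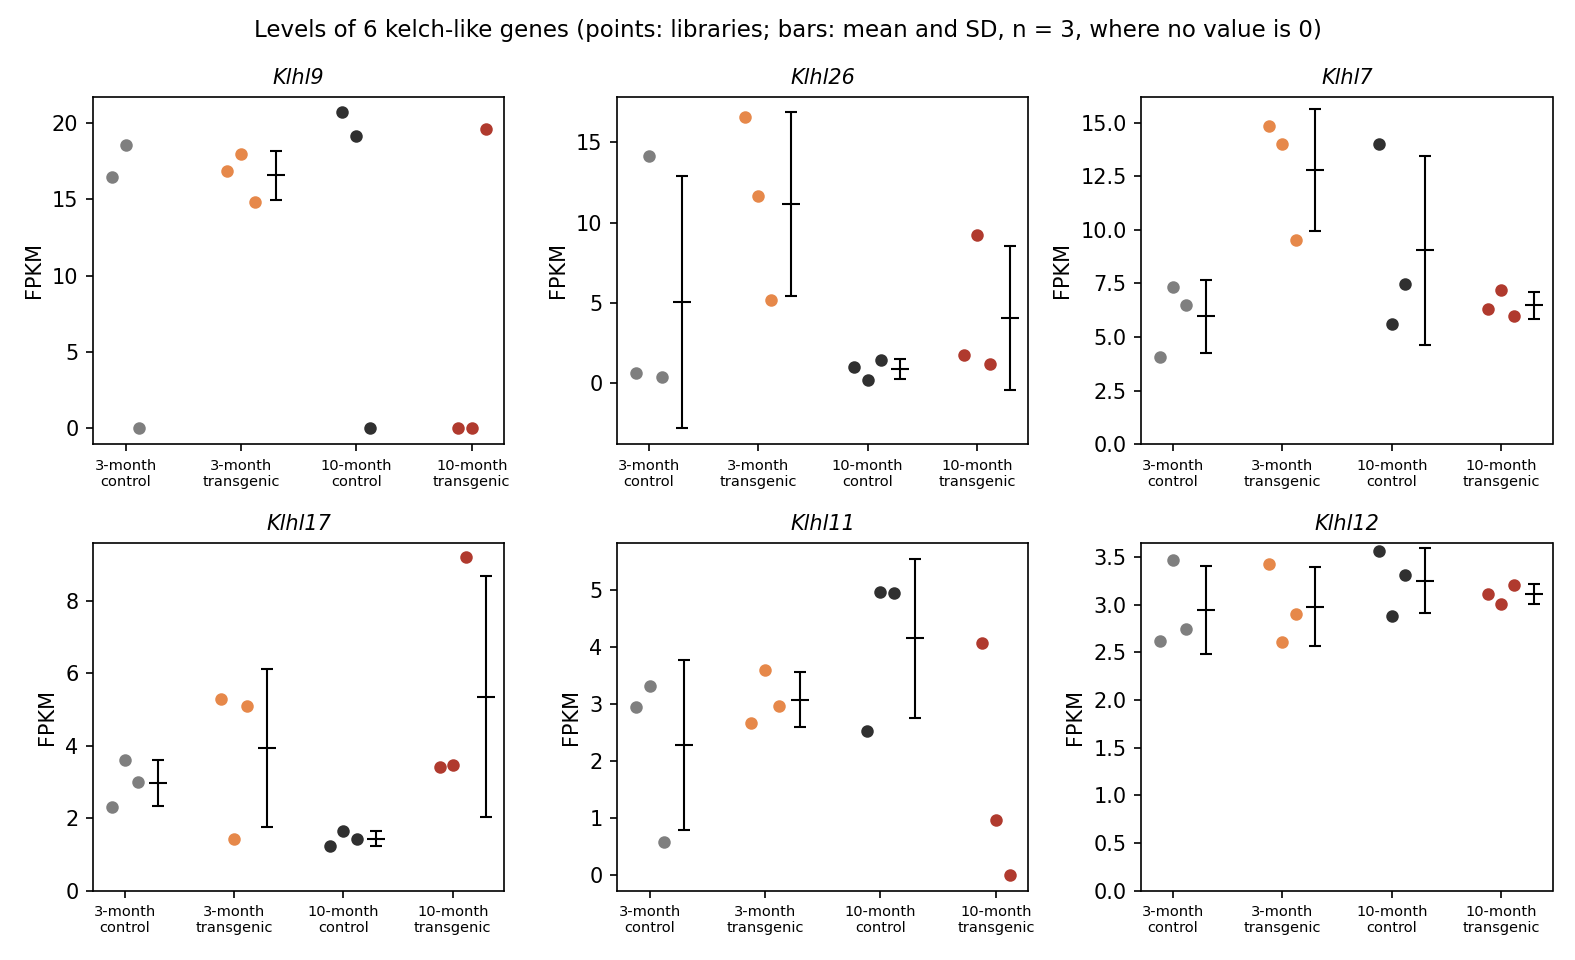
FPKM (vertical axes) of Klhl9, Klhl26, Klhl7, Klhl17, Klhl11 and Klhl12 in the 4 groups (horizontal axes), with a point per library and bars for mean and SD of 3 libraries where no value is 0. Klhl9 is at 14.9 FPKM or more or at 0, Klhl26 lies in a high and a low range, Klhl17 is higher in the 3 libraries labelled 10-month transgenic than in the 3 labelled control, and Klhl12 stays between 2.61 and 3.56 FPKM.

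The members known from skeletal muscle split. Klhl40, which stabilises proteins of the thin filament and is mutated in human nemaline myopathy, was above 0 in all 12 libraries. It was at 2.24, 0.772 and 1.302 FPKM in the 3-month controls, 2.55, 2.36 and 1.85 FPKM in the 3-month transgenic libraries, 2.73, 1.70 and 2.45 FPKM under the 10-month control label and 3.46, 2.82 and 2.61 FPKM under the 10-month transgenic label. The genotypes overlap at both ages, and in the transgenic libraries every 10-month value is above every 3-month value. Its relative Klhl41, mutated in the same disease, was listed at 0 throughout, as were Klhl30 and Klhl31, and Klhl38 was above 0 only in 3-month control 2, at 0.423 FPKM. The muscle markers Acta1, Ckm and Myh4 were listed at 0 in every library, and the 5 muscle markers summed to at most 0.128 FPKM. Klhl40 had a log2 fold change of 0.72 between genotypes at 3 months (SE 0.40, adjusted p = 1 in limma) and of 0.73 between 10 and 3 months in the controls (SE 0.40, adjusted p = 0.994 in limma), and the groups overlap in both. Without 3-month control 2, these values were 0.36 and 0.38, and without 3-month control 1 they were 1.08 and 1.09. Klhl10, needed for sperm formation in the mouse, was listed at 0 in all libraries with all 5 testis markers, as were Klhl14 and Klhl34.

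In order of mean level over the 12 libraries, Klhl9 was followed by Klhl7 at 8.58 ± 3.69, Klhl8 at 6.39 ± 1.60, Klhl26 at 5.28 ± 6.01, Klhl21 at 4.65 ± 0.613, Klhl42 at 3.91 ± 1.35, Klhl17 at 3.42 ± 2.28 and Klhl18 at 3.27 ± 0.856 FPKM (SD, n = 12). No 2 neighbours in this order differ by more than the larger of their SDs.

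Across the family, the genotype comparison at 10 months gave a call (limma adjusted p under 0.05) for 1 of 21 tested members, Klhl23, and 0.0102% of the 9846 genes tested were called. Since the family was picked on that contrast, nothing is read from this count. Of the 20 other tested members, 0 were called by limma and 1, Klhl17, had an unadjusted p under 0.05, against 4.4% of all genes. Without Klhl23, the groups did not overlap for 1 of 20, Klhl17, against 8.26% of all genes (4.37% higher and 3.89% lower). Without Klhl23, 9 of 20 log2 fold changes were positive, with a median of -0.094, against a median of 0.0085 over all genes.

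At 3 months, limma called 0 of the 21 members, and 0.0406% of all genes. At an unadjusted p under 0.05 there was 1, Klhl7, against 3.39% of all genes. The groups did not overlap for 3, with Klhl7 and Klhl8 higher and Klhl22 lower, against 7.98% of all genes (4.44% higher and 3.54% lower). Klhl22 passed the filter on low values only through its 3-month control mean, so nothing is read from its being lower. The log2 fold changes were positive for 15 of 21 with a median of 0.21, against 5129 of 9846 and a median of 0.017 over all genes. With size factors or quantile normalization they were positive for 14.

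**Figure D4:**
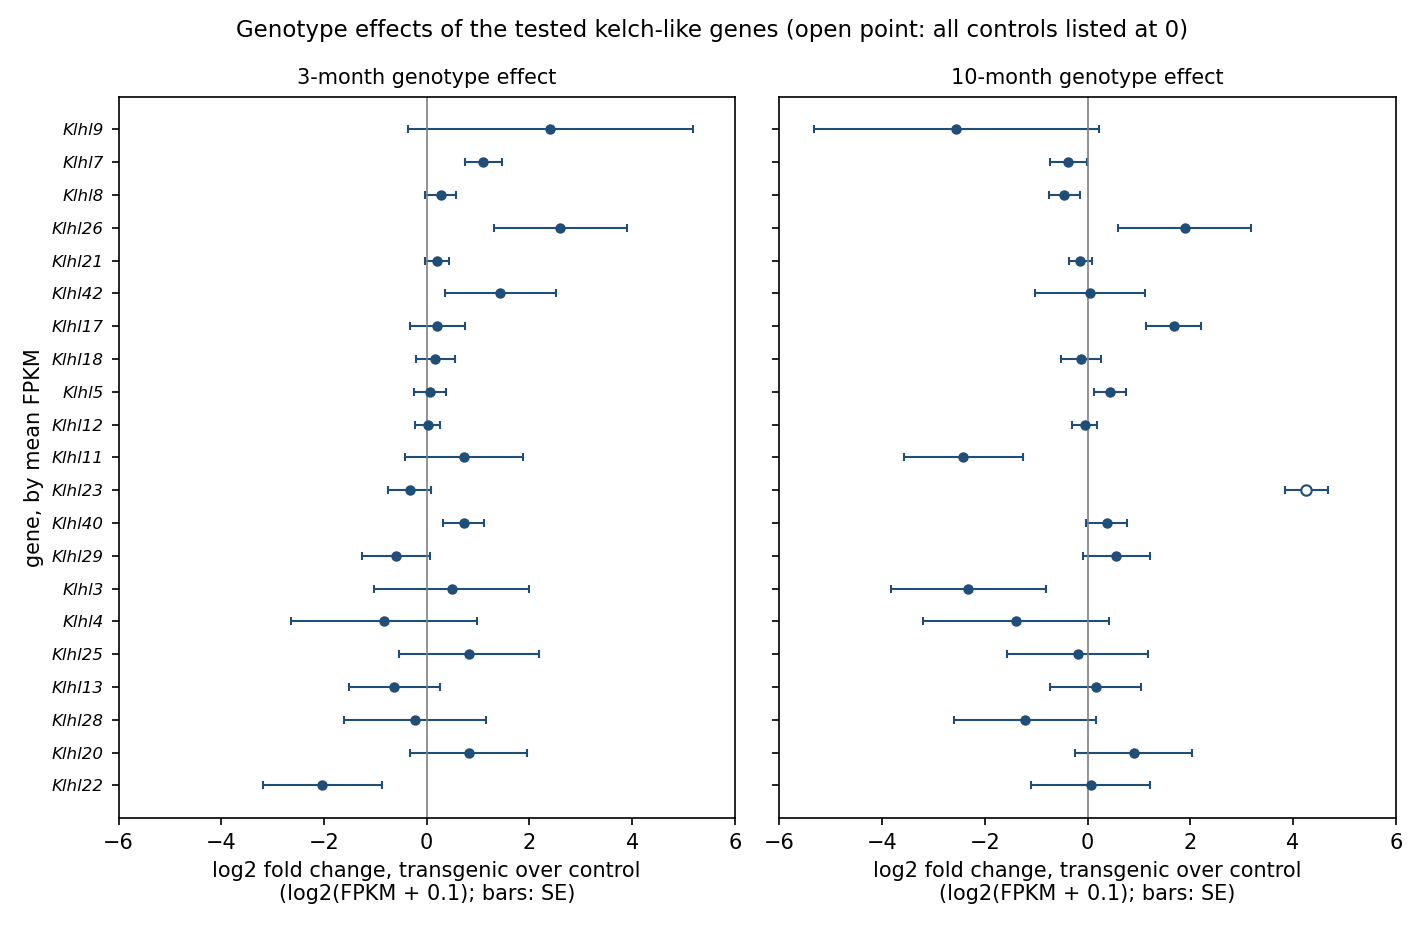
Log2 fold change of transgenic over control on the log2(FPKM + 0.1) scale (horizontal axes) for the 21 tested kelch-like genes (rows, by mean FPKM) at 3 and at 10 months, with bars for the SE of the limma fit. The open point marks Klhl23 at 10 months, where all control libraries are listed at 0 and the size is set by the added 0.1, and Klhl17 lies at 1.68 at 10 months.

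For the difference of the genotype effect between the ages, limma called 1 member, Klhl23, and 0.0508% of all genes, and again nothing is read from it. Of the 20 others, 0 were called and 1, Klhl7, had an unadjusted p under 0.05, against 3.32% of all genes.

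The age comparisons cannot be told apart from a difference between the deposited tables, since each age has its own table. In the controls, Klhl23 was the 1 member called by limma, against 0.0305% of all genes, and the choice of the family used its values there. Of the 20 others, 0 were called and 0 had an unadjusted p under 0.05, against 4.19% of all genes. Without Klhl23, the groups did not overlap for 2 of 20, Klhl8, which was higher at 10 months, and Klhl17, which was lower, against 10.1% of all genes (6.8% higher and 3.25% lower). In the transgenic libraries, limma called 0 members and 0.0203% of all genes, and 1, Klhl7, had an unadjusted p under 0.05, against 4.31% of all genes. The groups did not overlap for 6 of 21, against 9.43% of all genes (5.78% higher and 3.65% lower). They were Klhl3, Klhl7, Klhl21 and Klhl25, which were lower at 10 months, and Klhl40 and Klhl42, which were higher.

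The genes that work with the kelch-like adaptors were present at higher levels. Cul3, the scaffold, was at 13.7 ± 4.81 FPKM and Rbx1, its catalytic partner, at 39.3 ± 4.99 FPKM (SD, n = 12). Of BTB-kelch adaptors with other names, Enc1, an actin-binding protein of neurons, was at 27.1 to 135 FPKM, above every kelch-like member in every library. Keap1, the sensor of oxidative stress that holds Nrf2, was at 10.2 ± 1.42 FPKM (SD, n = 12).

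Cul3 was at 7.93, 10.9 and 20.7 FPKM in the 3-month controls and at 18.2, 21.6 and 18.9 FPKM in the 3-month transgenic libraries. The groups overlap, and the log2 fold change of 0.68 (SE 0.31) missed the threshold (adjusted p = 1 in limma). Ivns1abp, an actin-binding kelch protein, was at 17.3, 14.5 and 17.2 FPKM against 11.9, 13.2 and 14.3 FPKM at 3 months (log2 fold change -0.31, SE 0.16, adjusted p = 1 in limma). At 10 months, Cul1, the scaffold of the related SCF ligases, had 14.9, 6.64 and 12.53 FPKM under the control label and 20.2, 21.8 and 16.5 FPKM under the transgenic label (log2 fold change 0.84, SE 0.33, adjusted p = 0.969 in limma). Arhgef11, a guanine nucleotide exchange factor that is a target of Klhl20 in human cells, was at 5.94, 4.30 and 4.74 FPKM against 2.15, 2.62 and 0 FPKM (log2 fold change -2.57, SE 1.05, adjusted p = 0.969 in limma). The 0 in the 10-month transgenic 3 library makes the size of that change depend on the added 0.1.

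Limma called 0 genes of the 5 pathway lists in any of the 5 comparisons. At 10 months, 1 of the 25 tested genes of the cullin-3 core and its neddylation had an unadjusted p under 0.05 (median log2 fold change 0.016), 0 of 7 adaptors with other names (-0.041), 1 of 14 other BTB adaptors (0.16), 1 of 6 other cullins (-0.15) and 1 of 20 targets and partners (-0.072), against 4.4% of all genes (0.0085). At 3 months these counts were 0 in each of the lists, with medians of 0.025, -0.31, 0.010, 0.023 and 0.028, against 3.39% of all genes and a median of 0.017. In the authors' deposited table, 0 of the 29 members with a p-value at 10 months and 0 of the 30 at 3 months had a q-value under 0.05, against 0.0052% and 0.0156% of all genes with a q-value there. The smallest q-value of a member in the authors' deposited table was 0.577 at 10 months and 0.904 at 3 months.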

How the data were processed

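The authors deposited 1 table of gene-level FPKM for each age, with a column for each library. Libraries were strand-specific after removal of ribosomal RNA, per the labels' protocols. The submitters' processing notes name HISAT2 2.0.4, SAMtools, StringTie 1.3.0, R 3.4.2 and the builds mm10 and GRCm38. Options, order, annotation and use of strand are not stated there. The authors' tables also hold a fold change (a ratio), its log2 value, p-values and q-values, whose test is not stated per the file headers.

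Columns were matched to samples by the sample number in the labels. Values were analysed as log2(FPKM + 0.1), which understates changes of low genes, for the 9846 genes whose mean reached 1 FPKM in some group. limma 3.58.1 in R 4.3.3 (eBayes with trend and robust) fitted a mean per group to all 12 libraries, on the untested assumption that both tables share a scale. Adjusted p-values (Benjamini-Hochberg) cover all genes tested, with a threshold of 0.05, and the fit was tested on simulated data. Whether libraries of a group are separate animals is taken from the series' design. Fold changes were given for the 3 tested members with the smallest p in each comparison and for Klhl23, levels in every library for these and the 8 highest members, and Klhl22 was added after its values were seen. The members, the pathway lists and the marker lists were chosen with earlier results of these data known. Positions are from GENCODE M21 (GRCm38), in which 36 of the 37 members were located, and start windows from RefSeq (GRCm38.p6). Overlapping genes were looked up in the same annotation. The member not located was Klhl17, so neither overlapping genes nor shared 31-base words were looked up for it. Values of single genes on the pathway and marker lists are in part not reported here.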

Additional observations from a re-analysis of the deposited data

Results flagged for a closer look

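Klhl23 stands out because its genotype effect differed between the ages. The 10-month effect minus the 3-month effect was 4.59 on the log2(FPKM + 0.1) scale. The gene was picked for the zeros that make this difference, and its size is set by the added 0.1, so it is a description of the values given above.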

How the results depend on the processing

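The only member called in any comparison was Klhl23, on the values for which the family was picked, so its calls are a description and their loss or stability is read as neither support nor weakness. Its call between genotypes at 10 months was lost, leaving 0 members, with a pseudocount of 1, with the replicate block and with the 10-month libraries fitted alone. Its call for the difference between the ages was lost (0 members) with a pseudocount of 1, with a filter on the mean over all libraries and with the replicate block, and its call with age in the controls was lost (0 members) with the control libraries fitted alone. When each library was left out in turn, the number of members called ranged from 0 to 1 at 10 months, being 0 without 3-month transgenic 2 or 3, from 0 to 1 for the difference between the ages, being 0 without any 3-month control, 3-month transgenic 2 or 3, 10-month control 2 or 10-month transgenic 1 or 2, and was 1 throughout for age in the controls. No alternative gave a call at 3 months or with age in the transgenic libraries, and no log2 fold change of a kelch-like member given in the text changed sign. The neighbours of Klhl23 and the pathway genes were not followed through the alternatives. The replicate numbers share only a number: libraries with the same number had correlations of their deviations from -0.123 to 0.0939 over 18 pairs, and in 6 of 36 cases a library correlated best with its own number in another group. With a limit of 0.1 FPKM in place of exact 0, 11 of the 21 tested members were low in at least 1 library, against 8. Without Klhl23 it was 10 of 20 (50%) at that limit, against 31.3% of all genes tested. Depth is unknown, so no detection limit is given for values at 0.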
